A study of Homo sapiens with 3 samples.

Results

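Genes of the oxidative stress defence were examined in T24 cells, an established human bladder carcinoma line, by RNA-seq. The set held 45 genes chosen by name for their function: NRF2 (NFE2L2) and its inhibitor KEAP1, NRF2 targets, the glutathione and thioredoxin systems, enzymes that remove peroxide and superoxide, iron handling genes and genes of ferroptosis. Of the 45 symbols, 44 matched 1 row each among the 58381 genes of the count table. SOD2 carries another identifier in the annotation used for names and was not analysed here. A mean of at least 50 counts over the libraries was found for 40 of the 44, and for 13636 genes in all; AKR1B10, AKR1C2, GPX2 and MT1X lay under this limit.

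There were 3 libraries, 1 for each condition. Ctrl was labelled Control with the treatment Empty, RT was the control exposed to ionising radiation, and RT + shHDAC6 was irradiated after HDAC6 knockdown. The labels give a dose of 10 Gy of gamma rays and place the same dose text on the Ctrl library too, although its title and treatment name no radiation. The protocol names a lentiviral shRNA against HDAC6 and a pLKO.1 control vector, both in T24 cells under puromycin, whereas the study also calls its comparator parental cells; the time between irradiation and RNA extraction was not given in the sources used here. With 1 library per condition no difference has a replicate check, no test could be run, and differences between cultures cannot be told apart from the effects of irradiation or knockdown.

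NRF2 is a transcription factor that KEAP1 holds at a low level by marking it for degradation. Oxidants and electrophiles modify KEAP1, and NRF2 then binds antioxidant response elements beside genes that make glutathione, regenerate NADPH, reduce quinones and carbonyls and store iron. Ferroptosis is a form of cell death driven by iron-dependent peroxidation of membrane lipids, which GPX4 counters with glutathione made from cystine that SLC7A11 brings into the cell. Ionising radiation makes reactive oxygen species in water and is known to engage these defences in many cells.

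Total counts ranged from 35424086 to 41811165, and between 0.584% (RT) and 0.643% (RT + shHDAC6) of them fell on the 44 genes. Mitochondrially encoded RNA went from 3.75% of counts in Ctrl to 6.09% in RT and 5.51% in RT + shHDAC6. Beyond its effect on the scaling, its part in the differences below was not tested. Ratios are log2 ratios of counts after TMM scaling, a scaling that assumes most genes to be equal between libraries, and they are followed by 95% intervals that cover counting error only. Scaling by library totals instead shifts every log2 ratio by the same amount, by -0.22 for RT against Ctrl, 0.084 for RT + shHDAC6 against RT and -0.13 for RT + shHDAC6 against Ctrl. Leaving mitochondrially encoded genes out of TMM shifts the ratios of the same comparisons by 0.0016, -0.00043 and 0.0012. These 3 comparisons are called the irradiation, the knockdown and the combined contrast. Where 3 values of a gene follow each other, they belong to Ctrl, RT and RT + shHDAC6 in that order. A gene was called when its scaled level differed at least 1.5-fold, which is 0.58 on the log2 scale. Levels of different genes are compared as TMM-scaled RPKM, that is scaled reads per kilobase of exon, divided by the scaled library size.

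In the RNA of these libraries the knockdown was small, since HDAC6 had 3098, 2383 and 2170 counts. The knockdown library thus held 87.2% of the HDAC6 RNA level of the irradiated control. For its knockdown T24 cells the study reports reduced HDAC6 mRNA by qPCR and reduced protein by Western blotting. Protein was not measured here, and any contrast between these 2 libraries compares them as labelled. Of 15 urothelial and epithelial markers 10 passed the count limit, KRT18 (7336, 8362 and 9048 counts) foremost, and of the mesenchymal markers VIM had 121716, 74147 and 95822 counts. With irradiation KRT18 was called higher (0.62) and KRT19 lower (-0.67), beside 15.6% and 10.6% of all genes tested. Ratios below 0 were found for 8 of the 10, beside 46.3% of all genes tested. Among them were PPARG at -0.56, CDH1 at -0.55, KRT8 at -0.49, KRT5 at -0.46 and EPCAM at -0.39. KRT7 lay above 0 like KRT18, at 0.56 and inside the limit. VIM had -0.28, ZEB1 -0.39 and CDH2, called higher, 0.78. The uroplakins of differentiated urothelium (UPK1A, UPK1B, UPK2, UPK3A) and KRT20 were nearly absent, with 0 to 18 counts. Of markers that such a culture should lack, CD3E, CD68 and DES had 5 to 17 counts, PTPRC 57 to 120, PECAM1 209 to 489, MYH11 214 to 441 and COL1A1 2388 to 4706. In RT + shHDAC6 against RT the urothelial factors GATA3 and PPARG were called lower (-1.07 and -0.95), as was KRT7 (-2.75). These were 3 of the 10, beside 6.09% of all genes tested. CDH2 was also called lower, at -1.04. The other 7 urothelial and epithelial markers had ratios from 0.052 (KRT18) to 0.51 (EPCAM), and none was called higher. Of all genes tested, 47.1% had a ratio above 0 there and 3.75% were called higher. The part of these shifts in the results below was not tested.

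A pair of regulatory sequence types is shown because the genes are known for them. The first is the antioxidant response element, searched as its core TGACNNNGC on both strands in RefSeq promoters (GRCh38.p14, 250 bases before to 50 after a start). A match was found in 11 of the 36 genes that had a promoter in the table, or 30.6%, compared with 16.1% of all genes and 13.3% of all 35116 promoters. A gene counted when any of its promoters matched, and the number of promoters per gene was not evened out. Some matches also hold TGACTCA, the site of AP-1 factors, so that the letters do not name the factor. Promoters of FTH1, GSR, GSS, HMOX1, AKR1B10, PRDX1, PRDX6, SLC7A11 and SOD1 were not searched. A match from each of 7 genes that the text returns to is printed 5′ to 3′ on the gene's strand, with the core in capitals. These lie at chr19:10502779-10502817 (KEAP1, minus strand), chr1:93909441-93909479 (GCLM, minus), chr12:104215665-104215703 (TXNRD1, plus), chr6:83431165-83431203 (ME1, minus), chr10:70132829-70132857 (AIFM2, minus), chr2:208255191-208255229 (IDH1, minus) and chr16:56608465-56608503 (MT2A, plus).
KEAP1: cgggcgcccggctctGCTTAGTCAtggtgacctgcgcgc
GCLM: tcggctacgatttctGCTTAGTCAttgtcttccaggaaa
TXNRD1: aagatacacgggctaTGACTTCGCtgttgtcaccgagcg
ME1: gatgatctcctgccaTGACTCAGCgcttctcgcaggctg
AIFM2: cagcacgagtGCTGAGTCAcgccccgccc
IDH1: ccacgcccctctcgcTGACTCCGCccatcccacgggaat
MT2A: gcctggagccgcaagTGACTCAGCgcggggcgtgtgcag

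Of the 11 genes with a match, 9 passed the count limit. In RT against Ctrl, 1 of them was called higher (KEAP1) and 1 lower (IDH1), beside 15.6% higher and 10.6% lower of all genes tested, and none of the 9 was called in RT + shHDAC6 against RT, where the background was 3.75% and 6.09%.

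The second is the iron-responsive element, a short RNA hairpin bound by iron regulatory proteins when cells are short of iron. In the 5′ untranslated region of ferritin mRNA it blocks translation, and in the 3′ untranslated region of the transferrin receptor mRNA it protects the mRNA from decay. A hairpin with a C, a stem of 5 base pairs with at most 1 G-U pair and a loop that begins CAGTG was found in 149 of 20046 canonical protein-coding transcripts of GENCODE release 44 (0.743%). The search was chosen after the values were seen. Among the 45 genes the hairpin was found in 3, with 1 hairpin in FTH1, 1 in FTL and 4 in TFRC. Those of FTL (5′ untranslated region, chr19:48965336-48965362, plus strand) and TFRC (3′ untranslated region, minus strand, chr3:196050980-196051006, chr3:196050576-196050602, chr3:196050511-196050537 and chr3:196050464-196050490, GRCh38) are printed with the loop in capitals.
FTL: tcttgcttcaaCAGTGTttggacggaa
TFRC hairpin A: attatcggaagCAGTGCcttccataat
TFRC hairpin B: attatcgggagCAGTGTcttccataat
TFRC hairpin C: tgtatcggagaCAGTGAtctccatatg
TFRC hairpin D: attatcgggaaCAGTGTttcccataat

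The genes spanned a wide range of levels. FTL, the ferritin light chain, stood highest with 602, 499 and 755 scaled RPKM. PRDX1 followed with 182, 200 and 224, MT2A with 174, 127 and 141, and FTH1, the ferritin heavy chain, with 107, 93.4 and 114. FTL, PRDX1, MT2A and FTH1 kept this order in each library, while PRDX5 (123, 79.5 and 76.1) stood above FTH1 in Ctrl and below it in both irradiated libraries. At the low end of the 40 genes, OSGIN1, SRXN1 and AKR1C3 had between 0.204 and 1.27 scaled RPKM. The order rests on exon lengths of all transcripts of a gene joined together, and long unused exons lower a level.

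**Figure D1:**
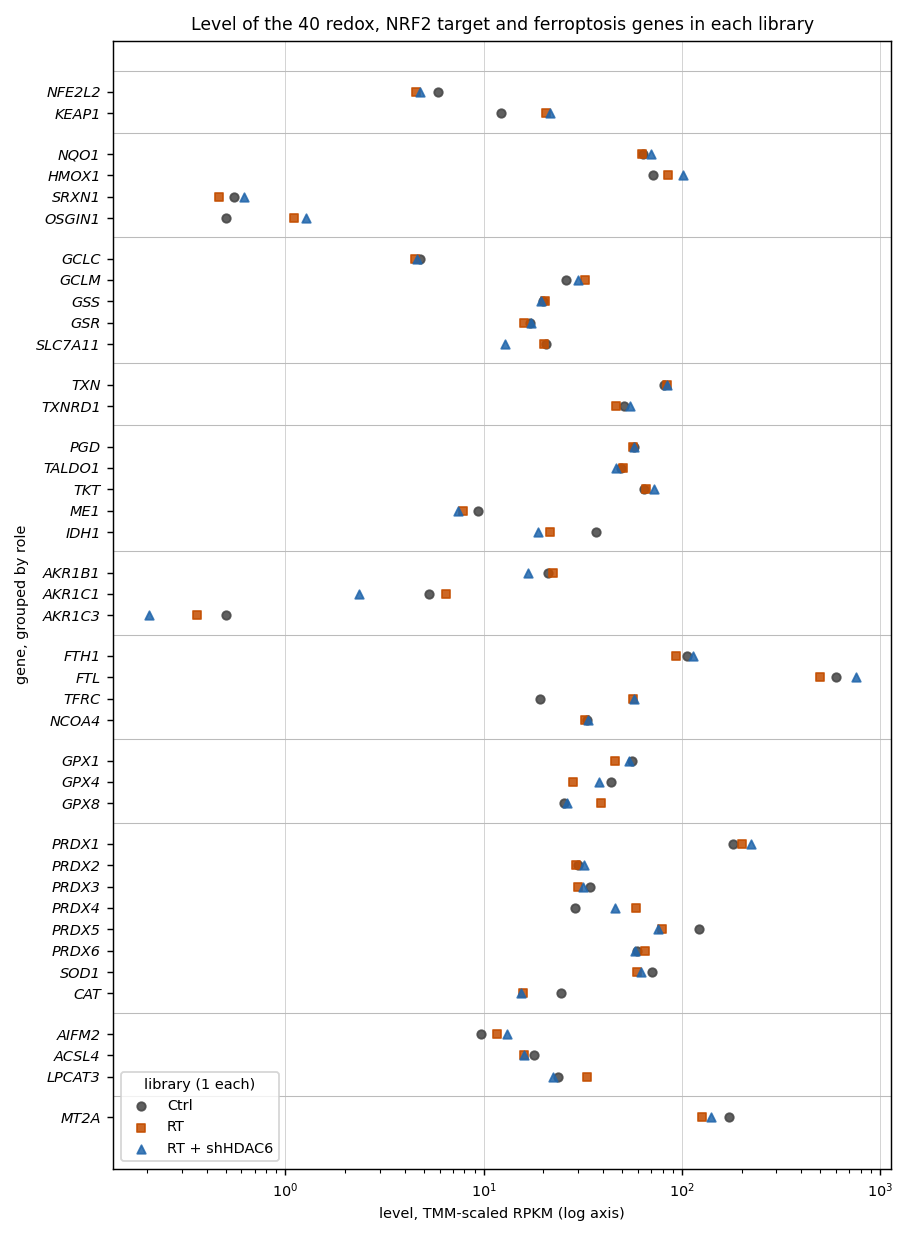
Levels of the 40 genes with enough counts, in TMM-scaled RPKM on a log axis, grouped by role from the regulators at the top to MT2A at the bottom. Each point is 1 library (circle Ctrl, square RT, triangle RT + shHDAC6). Most genes had 3 points close together, while TFRC moved from 19.4 in Ctrl to 56.6 and 57.4 in both irradiated libraries and AKR1C1 dropped to 2.34 in RT + shHDAC6.

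In RT against Ctrl, which asks what irradiation did to cells with normal HDAC6, genes of the set moved in both directions. Of the 40 genes, 5 were called higher (12.5%) and 4 lower (10%), beside a background of all genes tested, of which 15.6% were higher and 10.6% lower. The median log2 ratio was -0.035 for the 40 genes and 0.045 for all genes tested. Higher in RT were the transferrin receptor TFRC, OSGIN1, the endoplasmic reticulum enzymes PRDX4 and GPX8, and KEAP1. Lower in RT were IDH1, CAT, PRDX5 and GPX4. Scaled by library totals, 3 genes were higher and 6 lower, beside a background of 8.21% and 20.7%.

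In RT + shHDAC6 against RT, which asks what HDAC6 knockdown changed in irradiated cells, few of the genes moved. Only FTL was called higher (1 of 40, 2.5%, background 3.75%), and AKR1C1, AKR1C3 and SLC7A11 were called lower (3 of 40, 7.5%, background 6.09%). Of these, AKR1C3 passed the count limit only through Ctrl, the library where it was highest. The medians were 0.034 for the 40 genes and -0.018 for all genes tested. In RT + shHDAC6 against Ctrl, 4 genes were higher (10%, background 13.5%) and 6 were lower (15%, background 12.0%), with medians of -0.018 and 0.032. AKR1C3 was again among the genes called lower, and Ctrl, through which it passed the count limit, is the reference of this contrast. The background also depended on the scaling: with library totals it was 5.19% higher and 4.94% lower in the knockdown contrast, and 8.87% and 17.01% in the combined contrast. The comparisons share libraries and are therefore not independent of each other. Over all comparisons 13 genes were called at least once and 27 were not called in any. The matching share of all genes tested was not computed, so these counts have no background.

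**Figure D2:**
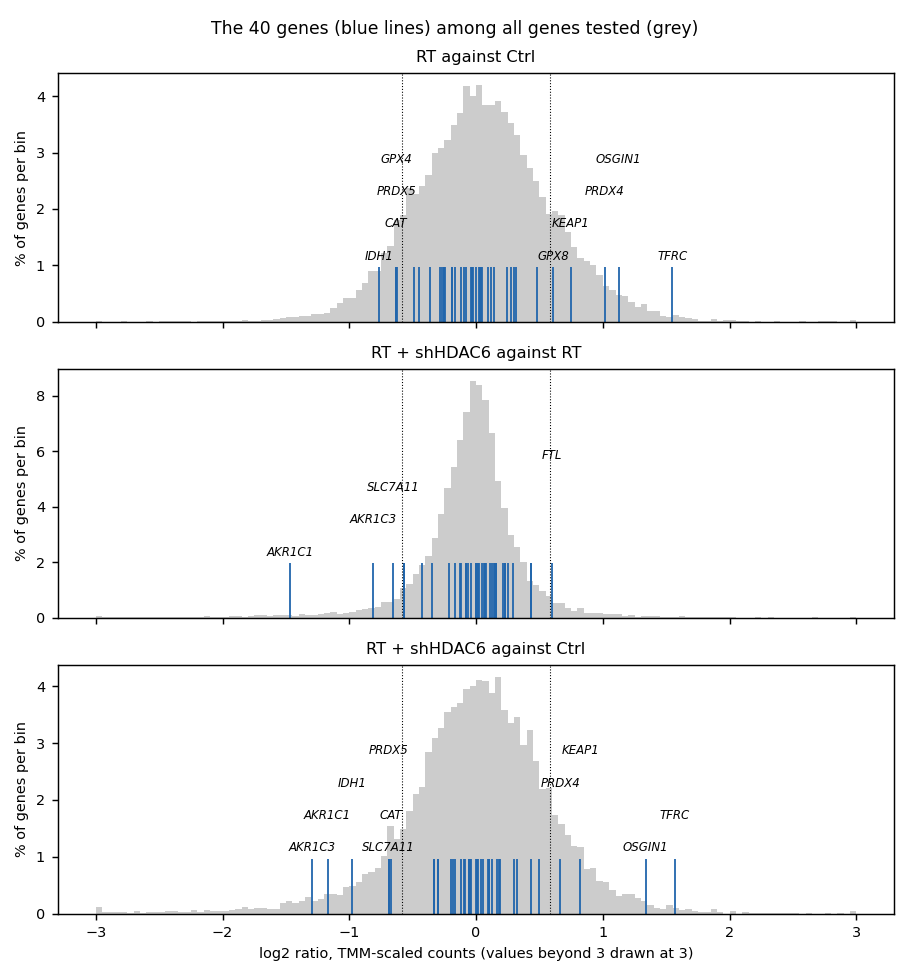
Log2 ratios of TMM-scaled counts in each of the 3 comparisons, with the percentage of all 13636 genes tested per bin in grey, the 40 genes as blue lines and the 1.5-fold limits dotted. Names mark the called genes. The blue lines lie within the grey distribution around 0, with TFRC far to the right of both comparisons with Ctrl and AKR1C1 far to the left in RT + shHDAC6 against RT.

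Of the regulators, KEAP1 was higher and NFE2L2 lower in the irradiated libraries. KEAP1 (ENSG00000079999, chromosome 19, 10486125 to 10503558), the adaptor through which NRF2 is degraded, had 1991, 2472 and 2715 counts. Its log2 ratio was 0.75 (interval 0.66 to 0.83) in the irradiation contrast, which was 0.53 and under the limit with library totals. NFE2L2 (ENSG00000116044, chromosome 2, 177218667 to 177392756), which encodes NRF2, had 3996, 2297 and 2506 counts. Its ratio in the irradiation contrast, -0.36 (interval -0.44 to -0.29), did not reach the limit. Both genes differed little between the irradiated libraries, by 0.073 for KEAP1 and 0.064 for NFE2L2. The scaled RPKM of KEAP1 over that of NFE2L2 was 2.09, 4.51 and 4.54. Its size depends on the exon lengths used, 3573 bases for KEAP1 and 14975 for NFE2L2. Their canonical transcripts have 2565 and 2446 bases. Only the change between libraries can therefore be read, not which of the genes was higher. Of the exon length of NFE2L2, 24.8% overlaps genes on the other strand and 13.6% another gene on the same strand, so its count is less certain.

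The inducible NRF2 targets showed no common shift with RT. NQO1, the quinone reductase often used as a readout of NRF2, had 8583, 6240 and 7249 counts, a ratio of -0.025 (interval -0.072 to 0.022) in the irradiation contrast. HMOX1, which breaks down haem and releases iron, had 7492, 6570 and 8156 counts and ratios of 0.25 in the irradiation contrast and 0.50 (interval 0.45 to 0.54) in the combined contrast. OSGIN1 (chromosome 16, 83931311 to 83966332), an oxidative stress-induced growth inhibitor, was the one gene of the 4 that was called, with 127, 205 and 248 counts. Its ratio was 1.13 (interval 0.80 to 1.46) in the irradiation contrast and 1.34 (interval 1.02 to 1.66) in the combined contrast. SRXN1, the sulfiredoxin that repairs peroxiredoxins, had 63, 39 and 55 counts, but another gene on its strand covers 90.7% of its exons, so that reads could have been left out of its count. In the knockdown contrast the 4 targets had ratios between 0.15 and 0.43, none of them was called, and the counting intervals of SRXN1 (-0.18 to 1.06) and OSGIN1 (-0.060 to 0.49) included 0. Of all genes tested, 47.1% had a ratio above 0 there.

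Of the genes that make and recycle glutathione none was called with irradiation, while the cystine carrier was lower in RT + shHDAC6. GCLC and GCLM, the catalytic and modifier subunits of the rate-limiting ligase, had ratios of -0.076 and 0.32 in the irradiation contrast. GSS, which completes glutathione, had 0.040, and GSR, which reduces it again, had -0.096. The cystine/glutamate exchanger SLC7A11 (ENSG00000151012, chromosome 4, 138164097 to 138242349) had 9063, 6548 and 4342 counts. Ctrl and RT lay close together after scaling (ratio -0.034, interval -0.080 to 0.012), and RT + shHDAC6 was lower than both. The ratios of SLC7A11 were -0.65 (interval -0.71 to -0.60) against RT and -0.69 (interval -0.74 to -0.64) against Ctrl. With library totals the former was -0.57 and just inside the limit. Of its exon length, 8.97% overlaps SLC7A11-AS1 on the other strand.

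Thioredoxin and its reductase differed little between libraries. TXN had 81.2, 83.9 and 84.3 scaled RPKM, and TXNRD1 had 50.9, 46.8 and 54.8. The largest log2 ratio of either gene in any comparison was 0.23, for TXNRD1 in RT + shHDAC6 against RT.

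Among the NADPH-supplying enzymes only IDH1 was called. IDH1 (ENSG00000138413, chromosome 2, 208236229 to 208266074), the isocitrate dehydrogenase of cytosol and peroxisomes, had 7869, 3423 and 3077 counts. Both irradiated libraries were well under Ctrl, with ratios of -0.77 (interval -0.82 to -0.71) for RT and -0.98 (interval -1.04 to -0.92) for RT + shHDAC6. PGD, TALDO1 and TKT of the pentose phosphate pathway had ratios in the irradiation contrast of -0.0027, 0.021 and 0.030. Malic enzyme ME1 had -0.25 (interval -0.37 to -0.13). The counting intervals of these 3 enzymes lay between -0.050 and 0.075, far from that of IDH1.

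The aldo-keto reductases, which reduce aldehydes, ketones and steroids, held the largest difference between the irradiated libraries. AKR1C1 (ENSG00000187134, chromosome 10, 4963253 to 4983283) had 2095, 1902 and 718 counts, and after knockdown 36.2% of its RT level was left. The ratio was -1.47 (interval -1.59 to -1.34) against RT and -1.17 (interval -1.30 to -1.05) against Ctrl. Its neighbours on chromosome 10 had few counts, namely 45, 23 and 13 for AKR1C2 and 89, 47 and 28 for AKR1C3. AKR1C3 was called lower in RT + shHDAC6, at -0.81 (interval -1.54 to -0.10) against RT, and AKR1C2 had -0.89 (interval -1.99 to 0.16) without reaching the count limit. AKR1C3 itself passed that limit only through its 89 counts in Ctrl. Its place among the called genes thus rests on the library where it was highest. AKR1B1, aldose reductase, had 3490, 2755 and 2137 counts and a ratio of -0.43 (interval -0.51 to -0.35) against RT, inside the limit. AKR1B10, a frequent NRF2 target in carcinomas, had 2, 0 and 3 counts and was at or under the 3 counts that a count of 0 allows, so that no fold is given. The AKR1C genes are near-identical in places: 36.0% of the AKR1C2 transcript, 16.8% of AKR1C1 and 12.3% of AKR1C3 consists of 75-base stretches found in another gene, so that reads could have been split or lost among them.

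**Figure D3:**
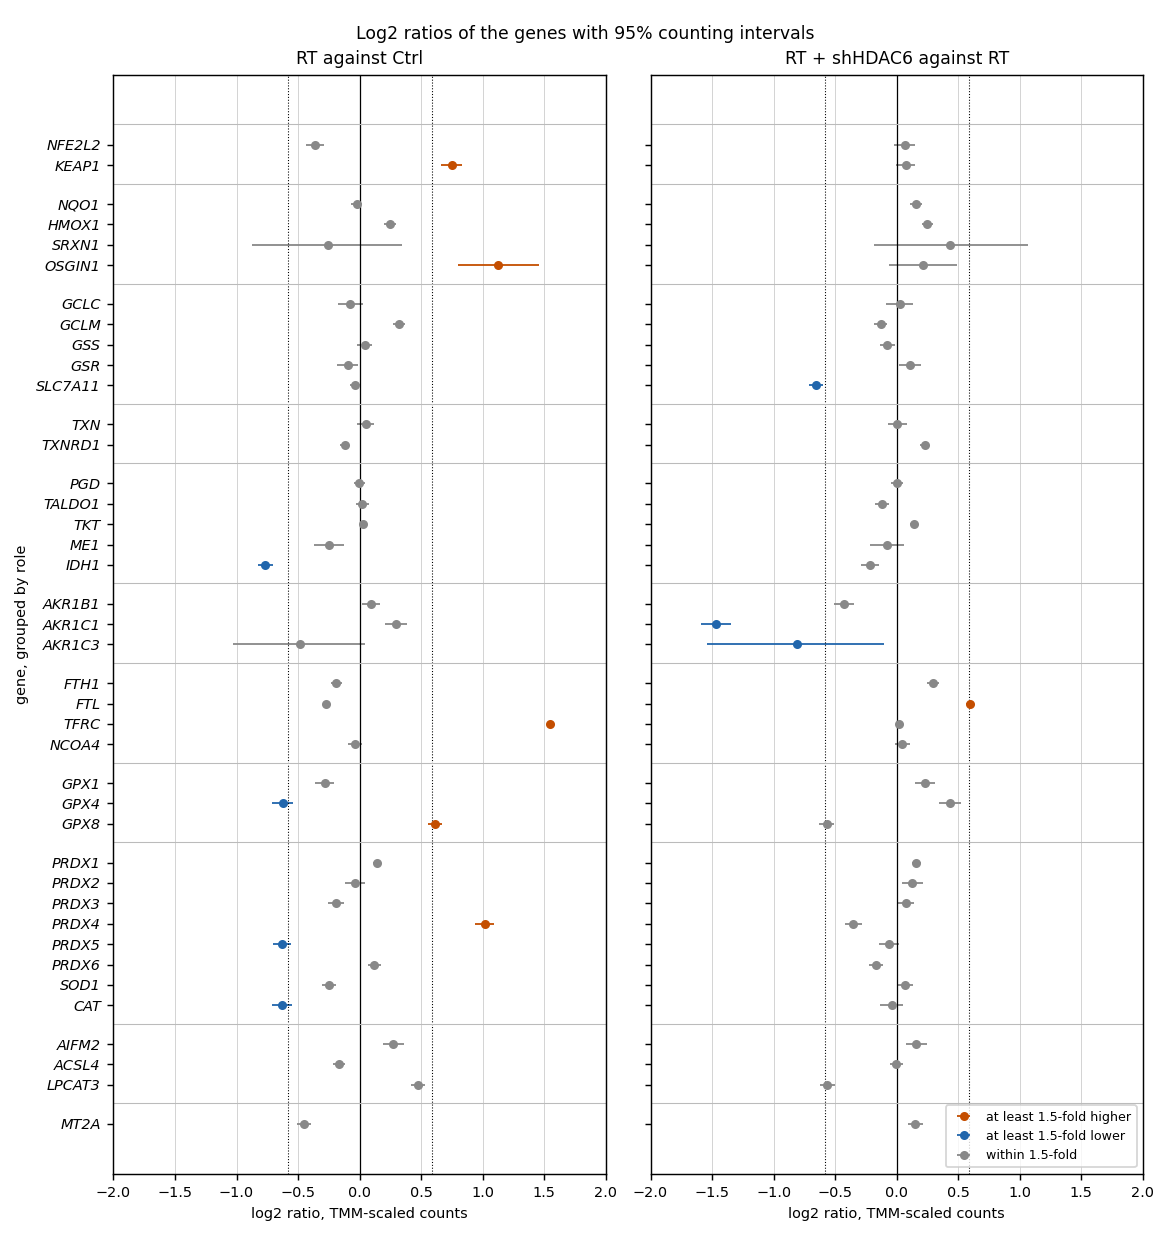
Log2 ratios of TMM-scaled counts of the 40 genes in the irradiation contrast (left) and RT + shHDAC6 against RT (right), by role, with bars for the 95% counting interval and dotted lines at 1.5-fold. Called genes are orange (higher) and blue (lower). The left panel holds 5 orange and 4 blue points and the right panel 1 and 3; wide bars belong to SRXN1, AKR1C3 and OSGIN1, which had few counts.

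The largest ratio among the 40 genes in the irradiation contrast was that of an iron handling gene. TFRC (ENSG00000072274, chromosome 3, 196012511 to 196082153), the receptor that takes up transferrin-bound iron and carries the 4 hairpins shown above, had 15250, 32998 and 34898 counts. It was 2.93-fold higher in RT than in Ctrl, a ratio of 1.55 (interval 1.52 to 1.58), and RT + shHDAC6 had nearly the level of RT (0.019, interval -0.0031 to 0.040). The ferritin genes, which store iron, were lowest in RT: FTL had 23783, 14588 and 23022 counts and FTH1 had 9681, 6279 and 8032. For FTL (ENSG00000087086, chromosome 19, 48965309 to 48966879) the ratio was -0.27 (interval -0.30 to -0.24) in the irradiation contrast and 0.60 (interval 0.57 to 0.63) in the knockdown contrast, barely past the limit. FTH1 had -0.19 and 0.29 in the same comparisons. The scaled RPKM of TFRC relative to FTH1 was 0.182, 0.606 and 0.501. The size of this ratio depends on the exon lengths used, 17376 and 2004 bases. The canonical transcripts have 5012 and 1203 bases, so only its change between libraries can be read. NCOA4, the receptor that delivers ferritin to lysosomes, differed by at most 0.045 on the log2 scale in any comparison. Ferritin counts are less certain, since 31.5% of the FTH1 transcript and 9.54% of the FTL transcript consist of stretches found in other genes, pseudogenes among them, and 63.2% of the FTH1 exon length overlaps BEST1 on the other strand. The pseudogenes named after FTH1 had 744, 335 and 418 counts in all, and those named after FTL had 706, 401 and 487.

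Glutathione peroxidases differed in direction from one another. GPX4 (ENSG00000167468, chromosome 19, 1103982 to 1106791), the selenoenzyme that reduces lipid hydroperoxides in membranes, had 3652, 1750 and 2464 counts. It was lower in RT than in Ctrl at -0.63 (interval -0.71 to -0.54), and RT + shHDAC6 lay between the other libraries (0.43 against RT, -0.19 against Ctrl). GPX8 (chromosome 5, 55160167 to 55167297), a peroxidase of the endoplasmic reticulum membrane, went the other way with 4688, 5288 and 3721 counts. Its ratio was 0.61 (interval 0.55 to 0.67) in the irradiation contrast and -0.57 (interval -0.63 to -0.51) in the knockdown contrast, and the latter stopped short of the limit. GPX8 was not called in RT with library totals (0.39) or upper quartile scaling (0.55). GPX1 had 3648, 2218 and 2714 counts and a ratio of -0.28 in the irradiation contrast, but 70.8% of its transcript is found in other genes. GPX2, an enzyme of digestive epithelium, had 0 counts in Ctrl and RT and 4 in RT + shHDAC6.

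Of the peroxiredoxins, which reduce peroxides with reactive cysteines, PRDX4 and PRDX5 moved apart. PRDX4 (ENSG00000123131, chromosome X, 23664262 to 23686397), the peroxiredoxin of the endoplasmic reticulum, had 2442, 3651 and 2988 counts. Its ratio was 1.02 (interval 0.94 to 1.09) in the irradiation contrast and 0.66 (interval 0.59 to 0.74) in the combined contrast, although the latter was 0.53 with library totals. PRDX5 (chromosome 11, 64318121 to 64321811), found in mitochondria and peroxisomes, had 4788, 2292 and 2291 counts and a ratio of -0.63 (interval -0.70 to -0.56) in the irradiation contrast. PRDX1, PRDX2 and PRDX6, mainly of the cytosol, and mitochondrial PRDX3 lay between -0.19 and 0.14 in that comparison. Catalase, CAT (chromosome 11, 34438934 to 34472060), which splits hydrogen peroxide in peroxisomes, had 3991, 1905 and 1935 counts. Its ratio of -0.63 (interval -0.71 to -0.55) in the irradiation contrast was almost the same as that of PRDX5, and the irradiated libraries lay close together for both genes (knockdown contrast -0.040 for CAT and -0.063 for PRDX5, with both intervals reaching above 0). With DESeq2 size factors CAT, PRDX5 and GPX4 lay at -0.57 and just inside the limit, so that IDH1 alone stayed called lower. SOD1, the cytosolic superoxide dismutase, had 6314, 3934 and 4307 counts and a ratio of -0.25.

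**Figure D4:**
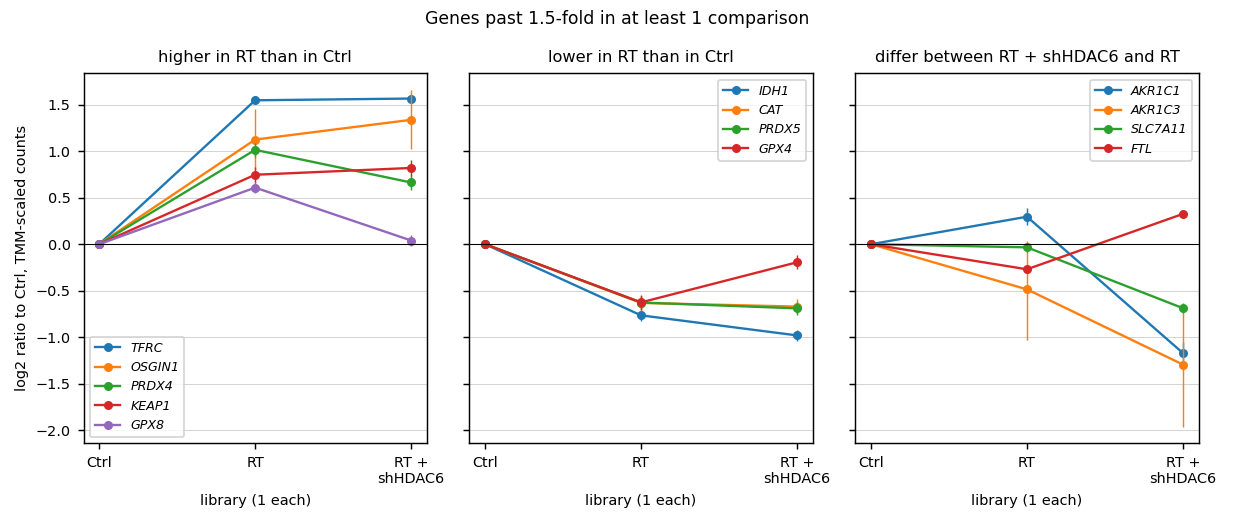
The 13 genes called in at least 1 comparison, as log2 ratios of TMM-scaled counts to Ctrl in each library (1 each), with 95% counting intervals. TFRC, OSGIN1 and KEAP1 stayed high in RT + shHDAC6 and IDH1, CAT and PRDX5 stayed low, while GPX8 returned to 0.04 and GPX4 to -0.19. AKR1C1, AKR1C3 and SLC7A11 lay under Ctrl in RT + shHDAC6 and FTL stood above it at 0.33.

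The lipid genes of ferroptosis were not called in any comparison. ACSL4, which loads membranes with polyunsaturated fatty acids, had 8102, 5343 and 5569 counts and ratios of -0.17 in the irradiation contrast and -0.0023 in the knockdown contrast. LPCAT3, which places such fatty acids into phospholipids, had 5052, 5202 and 3670 counts and ratios of 0.48 (interval 0.42 to 0.53) and -0.57 (interval -0.63 to -0.50), although 66.0% of its exon length overlaps EMG1 on the other strand. AIFM2 (FSP1), which reduces coenzyme Q and so protects membranes, had 2255, 2017 and 2352 counts and a ratio of 0.43 (interval 0.35 to 0.52) in the combined contrast. LPCAT3 and GPX8 thus had similar pairs of ratios, both just short of the limit after knockdown.

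Metallothioneins bind zinc and copper and scavenge radicals. MT2A (chromosome 16, 56608584 to 56609497) had 7198, 3888 and 4507 counts. Its ratio of -0.45 (interval -0.51 to -0.40) in the irradiation contrast did not reach the limit, but was -0.67 and past it with library totals. MT1X had 47, 35 and 39 counts. The metal response element, searched as TGCACNC and TGCGCNC on both strands after the values were seen, had 8 matches in the MT2A promoters and 4 in those of MT1X. It was found in 23 of the 36 genes with a promoter (63.9%), SOD2 among them, in 33.4% of all genes and in 29.6% of all promoters. A gene counted when any of its promoters matched. The number of promoters per gene was not evened out, so these shares are a description only.

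Further genes of the same pathways were taken from a list of 95, of which 94 matched and 78 passed the count limit. In RT against Ctrl, 13 of the 78 were called higher (16.7%) and 7 lower (8.97%), with a median of 0.023, beside a background of 15.6% and 10.6%. SLC3A2, the heavy chain that pairs with SLC7A11, had 6093, 10973 and 11372 counts and a ratio of 1.28 (interval 1.24 to 1.33) in the irradiation contrast. The zinc exporter SLC30A1 had 1.15 and the cytochrome P450 reductase POR had 1.11. CHAC1, which degrades glutathione, fell most, with 472, 79 and 120 counts and a ratio of -2.14 (interval -2.51 to -1.80). The thioredoxin inhibitor TXNIP had -0.89 and the glutathione transferase GSTM3 had -0.82. SLC7A11 and its partner SLC3A2 thus differed, with irradiation ratios of -0.034 and 1.28.

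In RT + shHDAC6 against RT, 2 of the 78 genes were higher (2.56%, background 3.75%) and 3 were lower (3.85%, background 6.09%), with a median of 0.020. GSTM2 had -0.71 and the microsomal glutathione transferase MGST1 had -0.70 (interval -0.74 to -0.65). GGT1 had 0.71 and GSTM3 0.61, both from few counts. GGT1 had 56, 38 and 65 counts and passed the count limit only through RT + shHDAC6, the library where it was highest. Its place among the genes called higher, here and against Ctrl, thus rests on that library. Another gene on its strand shares 56.5% of its exon length. GCH1, which starts the synthesis of tetrahydrobiopterin, had 0.57 inside the limit, but passed it with library totals (0.65) and upper quartile scaling (0.60). Against Ctrl, RT + shHDAC6 had 11 genes higher (14.1%, background 13.5%) and 7 lower (8.97%, background 12.0%), with a median of 0.13. CHAC1 (-1.60) and GLRX (-0.91) were among the lowest there, and SLC3A2 (1.27), CYB5R1 (1.04) and DHODH (0.81) were highest.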

How the data were processed

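RNA from 3 T24 cultures was sequenced. Reads were trimmed (cutadapt), mapped by STAR to the GRCh38 genome (version 2.6.1a per the submitters' processing notes, while the study's methods name another) and assigned by featureCounts to genes of GENCODE release 28 by the authors. The deposited values are whole read counts without normalisation; strand and multi-mapping settings are not given in the sources used here.

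Symbols, positions and exon lengths came from GENCODE release 44 (57754 of 58381 identifiers matched). TMM factors were computed with edgeR 4.0.16 and size factors with DESeq2 1.42.0 (R 4.3.3) across all genes, and intervals (exact Clopper-Pearson, 95%) with scipy 1.17.1. A count of 0 was set to 0.5. The code was checked on libraries with known changes. The study called genes by NOISeq, whose probability without replicates comes from simulated noise, so a fold of 1.5 among genes with a mean of at least 50 counts was used instead.

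All 44 matched genes are covered, with full values for called genes, NFE2L2, KEAP1, GPX4 and SLC7A11; of the further pathway genes, the 3 largest rises and falls in each comparison are named, except for an item that is not reported here. The genes and lists were chosen with earlier results of these data known. Alternatives covered scaling, filter and fold. Reads are not independent molecules, so intervals and the 3-count floor (0.0718 to 0.0847 CPM) cover counting error only.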

Additional observations from a re-analysis of the deposited data

How the results depend on the processing

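No paired analysis was possible because each condition had 1 library. With library totals, the irradiation contrast gave 3 genes higher, and the medians of the 40 genes were -0.25 for the irradiation contrast, 0.12 for the knockdown contrast and -0.15 for the combined contrast. With DESeq2 size factors 1 gene was lower in the irradiation contrast (background 8.48% lower), and the medians of the irradiation and the combined contrast turned positive (0.024 and 0.031). At 2-fold, the counts higher and lower were 3 and 0 for the irradiation contrast (background 4.22% and 2.23%), 0 and 1 for the knockdown contrast (1.04% and 2.48%), and 2 and 2 for the combined contrast (3.59% and 4.55%). With the limit at 0.32 on the log2 scale, 6 genes were higher and 7 lower in the irradiation contrast (background 29.1% and 23.3%). In the knockdown contrast 3 were higher and 7 lower (11.03% and 15.4%), and in the combined contrast 7 were higher and 8 lower (28.1% and 23.8%). Without a filter on counts 3 genes were higher in the knockdown contrast (background 20.3%). Over the 5 scalings the sign of the ratio changed for 12, 7 and 11 of the 40 genes. The call changed for 7, 1 and 1. These counts belong to the irradiation, the knockdown and the combined contrast in that order. The matching shares of all genes tested were not computed, so they have no background and cannot be read as a trait of the 40 genes. A scaling shifts all ratios of a contrast by the same amount. The largest shift from TMM, -0.22 with library totals in the irradiation contrast, is smaller in size than the limit for a call. Genes called with TMM therefore could not change direction, and their direction was not tested by the scalings. Ratios of SRXN1, AKR1C3, GSTM2, GSTM3, GGT1 and OSGIN1 rest on few counts, and without replicates the variation between cultures is unknown.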

Other observations

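Some further genes of iron, selenium and metal biology were picked after their values were seen. Of the iron and metal carriers in the wider list, SLC39A14, a zinc and iron importer, had 7252, 10626 and 9540 counts, a log2 ratio of 0.99, and SLC11A2, the divalent metal transporter, had 3708, 4169 and 3438 counts, a ratio of 0.60. Upper quartile scaling (0.55) and library totals (0.39) put SLC11A2 inside the limit. The iron exporter SLC40A1 had 600, 317 and 404 counts (ratio -0.49, inside the 1.5-fold limit, but -0.70 and past it with library totals), and the iron regulatory proteins ACO1 and IREB2 had ratios of 0.019 and -0.069.

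NFE2L1, a relative of NRF2 that resides in the endoplasmic reticulum, had 17459, 25759 and 18985 counts. It was 1.99-fold higher in the irradiation contrast and had a ratio of -0.50 in the knockdown contrast, whereas NFE2L2 had -0.36 and 0.064. BACH1, the repressor that competes with NRF2 at its elements, had 2473, 1199 and 1363 counts and a ratio of -0.61 in the irradiation contrast, which was -0.55 and not called with DESeq2 size factors. The autophagy receptor SQSTM1, which binds KEAP1, had 17080, 13144 and 18980 counts, ratios of 0.057 and 0.47.

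Of the listed metallothionein genes beside MT2A on chromosome 16, only MT1E passed the count limit, with 1085, 777 and 985 counts and a ratio of -0.047 in the irradiation contrast, compared with -0.45 for MT2A. The lipoxygenases ALOX5, ALOX12 and ALOX15, which can oxidise membrane lipids, had 45 counts or fewer in every library.

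Of the 13 selenoprotein genes in both lists that passed the count limit, 7 had ratios above 0 and 6 below 0 in the irradiation contrast. Of all genes tested, 53.7% lay above 0 and 46.3% below. Among the 13, 1 was called higher and 2 lower, beside 15.6% and 10.6% of all genes tested. TXNRD2, the mitochondrial thioredoxin reductase, had 833, 953 and 1090 counts and was called higher (0.63), but not with library totals (0.41) or upper quartile scaling (0.57). SELENOP, the secreted selenium carrier, had 462, 195 and 294 counts and was called lower (-0.81). GPX4 was called lower too (-0.63), but not with DESeq2 size factors (-0.57). SELENOK, SELENOM, SELENOS, SELENOT and SELENOW had ratios between 0.34 and 0.56, of which SELENOW passed the limit with DESeq2 size factors (0.61), and TXNRD3 had 0.14. MSRB1 had -0.31, GPX1 -0.28, SEPHS2 -0.18 and TXNRD1 -0.12.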
